A study of Homo sapiens with 4 samples.

Results

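The 38 genes described here are interferon-induced genes, interferon regulatory factors (IRFs) and their binding proteins, out of 14884 genes named on the arrays. They were chosen by symbol, with a rule set when earlier results of these data were known. The rule takes symbols starting with IFI, ISG, OAS, GBP or IRF. It also takes MX1, MX2, HERC5, HERC6, SAMD9, SAMD9L, RSAD2 and a set of PARP genes. Neither MX1 nor any PARP gene was among the named probe sets. The same holds for OAS1, OAS2, OAS3, GBP1, GBP2, IFI6, IFI16 and IFI27. Family values cover only genes with a named probe set, which are called measured here. Of the 53617 probe sets 37519 had no gene symbol, so the arrays may still probe genes without a named probe set. The arrays, 4 in all from Affymetrix, carry RNA from HUT78, a human cell line derived from cutaneous T-cell lymphoma: 2 from cells left untreated and 2 from cells given CSH71 (250 nM, 30 h). By the series' description this compound is aimed at a lipid-binding domain in the kinase p38γ. All arrays are of the same cell line, the labels name no vehicle control, and nothing says that replicates came from different cultures. The p-values therefore reflect the spread among these arrays alone, and that spread may be technical.

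Interferons are secreted proteins that warn cells of viral infection. Type I interferons bind the receptor made of IFNAR1 and IFNAR2, which activates the kinases JAK1 and TYK2 and leads to a transcription factor complex that contains IRF9. This complex binds the interferon-stimulated response element in front of antiviral genes, while interferon gamma acts through the gamma-activated site. T cells both make interferon gamma and respond to interferons, and many interferon-induced genes have a basal level without infection. The families differ in what the proteins do: RSAD2 (viperin), MX2, OASL, the IFIT and the IFITM proteins act against viruses, ISG15 is a ubiquitin-like protein that HERC5 attaches to targets, GBP proteins are interferon-induced GTPases, and the IRFs are the transcription factors that switch such genes on or off. Some members carry the family name without that role: IFITM4P is a pseudogene, IFITM5 is known from bone, and IRF2BP1, IRF2BP2 and IRF2BPL are corepressor-type nuclear proteins named for binding to IRF2.

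Promoter sequence was available for 28 of the 38 genes, as RefSeq windows of assembly GRCh38.p14 that run from 250 bases before to 50 bases after each of their 36 start sites. The core of the interferon-stimulated response element, searched on both strands as the letters GAAA, any 2 bases, and GAAA again, was found for 15 of the 28 genes (53.6%), against 3.57% of all 35116 windows of the same length. It was found for 15 of 20 genes outside the IRF and IRF2BP families, for 0 of 5 IRFs and for 0 of 3 IRF2BP genes. The gamma-activated site, searched as TTCNNNGAA, which reads the same on both strands, was found for 6 of the 28, against 7.66% of all windows. For a gene a match at any of its start sites was enough, whereas the shares of all windows count each window by itself. In IFITM1 matches of both motifs overlap. The following stretches, the 180 bases that end just before the start site, written 5′ to 3′ on the gene's strand, show where the elements lie in the genes whose values are described first, with each match in capitals.
RSAD2 (chr2:6877597-6877776, plus strand): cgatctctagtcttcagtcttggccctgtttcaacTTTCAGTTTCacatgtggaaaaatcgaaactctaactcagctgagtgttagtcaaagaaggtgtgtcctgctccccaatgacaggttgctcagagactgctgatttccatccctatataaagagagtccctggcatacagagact
IFIT3 (chr10:89327817-89327996, plus strand): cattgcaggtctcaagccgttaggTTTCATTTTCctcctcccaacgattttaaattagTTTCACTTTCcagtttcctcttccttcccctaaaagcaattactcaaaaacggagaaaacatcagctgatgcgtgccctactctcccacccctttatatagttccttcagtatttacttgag
HERC6 (chr4:88378672-88378851, plus strand): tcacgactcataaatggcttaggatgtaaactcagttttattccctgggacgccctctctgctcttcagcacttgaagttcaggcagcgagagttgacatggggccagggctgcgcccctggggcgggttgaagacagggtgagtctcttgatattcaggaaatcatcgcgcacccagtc
ISG15 (chr1:1013317-1013496, plus strand): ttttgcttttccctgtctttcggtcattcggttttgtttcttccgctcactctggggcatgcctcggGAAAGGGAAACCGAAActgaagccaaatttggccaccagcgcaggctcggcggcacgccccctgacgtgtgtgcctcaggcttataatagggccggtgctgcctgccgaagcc
ISG20 (chr15:88638836-88639015, plus strand): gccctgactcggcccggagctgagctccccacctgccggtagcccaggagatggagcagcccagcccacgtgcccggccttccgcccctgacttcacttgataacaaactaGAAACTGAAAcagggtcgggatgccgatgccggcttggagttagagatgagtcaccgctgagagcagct
IRF1 (chr5:132490774-132490953, minus strand): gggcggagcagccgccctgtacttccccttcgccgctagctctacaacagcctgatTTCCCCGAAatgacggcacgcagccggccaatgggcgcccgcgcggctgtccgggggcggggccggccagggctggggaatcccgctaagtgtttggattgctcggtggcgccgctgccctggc

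In RSAD2 the element lies at bases -145 to -136 of 1 of its 2 start sites, counted from -1 just before the start, and the window of the other start site holds no match. IFIT3 has 2 start sites with 2 matches each, those of the stretch shown at -156 to -147 and -122 to -113. ISG15 has 2 overlapping matches that begin at -113 and -107, and ISG20 has 1 at -69 to -60. The HERC6 window holds neither motif, and that of IRF1 holds a gamma-activated site at -124 to -116. These are matches of letters, and binding was not measured.

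RSAD2, an enzyme that makes a chain-terminating nucleotide analogue against viral RNA synthesis, had the lowest log2 fold change of the 38 genes. Its intensity was 802 and 919.7 on the untreated arrays and 489 and 399.8 on the CSH71 arrays. Both treated arrays lay below both untreated ones. The group means were 861 ± 82.9 and 444 ± 62.8 (SD, n = 2 per group), and the log2 fold change, computed here and throughout on log2(intensity + 16), was -0.93 ± 0.19 (SE) with a 95% interval of -1.38 to -0.49. The difference was larger than the log2 differences within the groups, which were 0.19 between the untreated and -0.28 between the CSH71 arrays (replicate 2 minus replicate 1). It did not pass limma's test over all 14884 genes (adjusted p = 0.744), in which a call needs an adjusted p under 0.05. RSAD2 ranked 32 by p among all genes. It passed downwards in 2 of 14 alternatives, with a pseudocount of 64 (adjusted p = 0.0284) and with a variance prior that follows intensity (8.47e-07). Adjusted p-values over all alternatives ran from 8.47e-07 to 1, and the log2 fold change from -1.07 to -0.79. With that prior the prior degrees of freedom were infinite, so that p does not draw on the spread of RSAD2 itself.

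**Figure D1:**
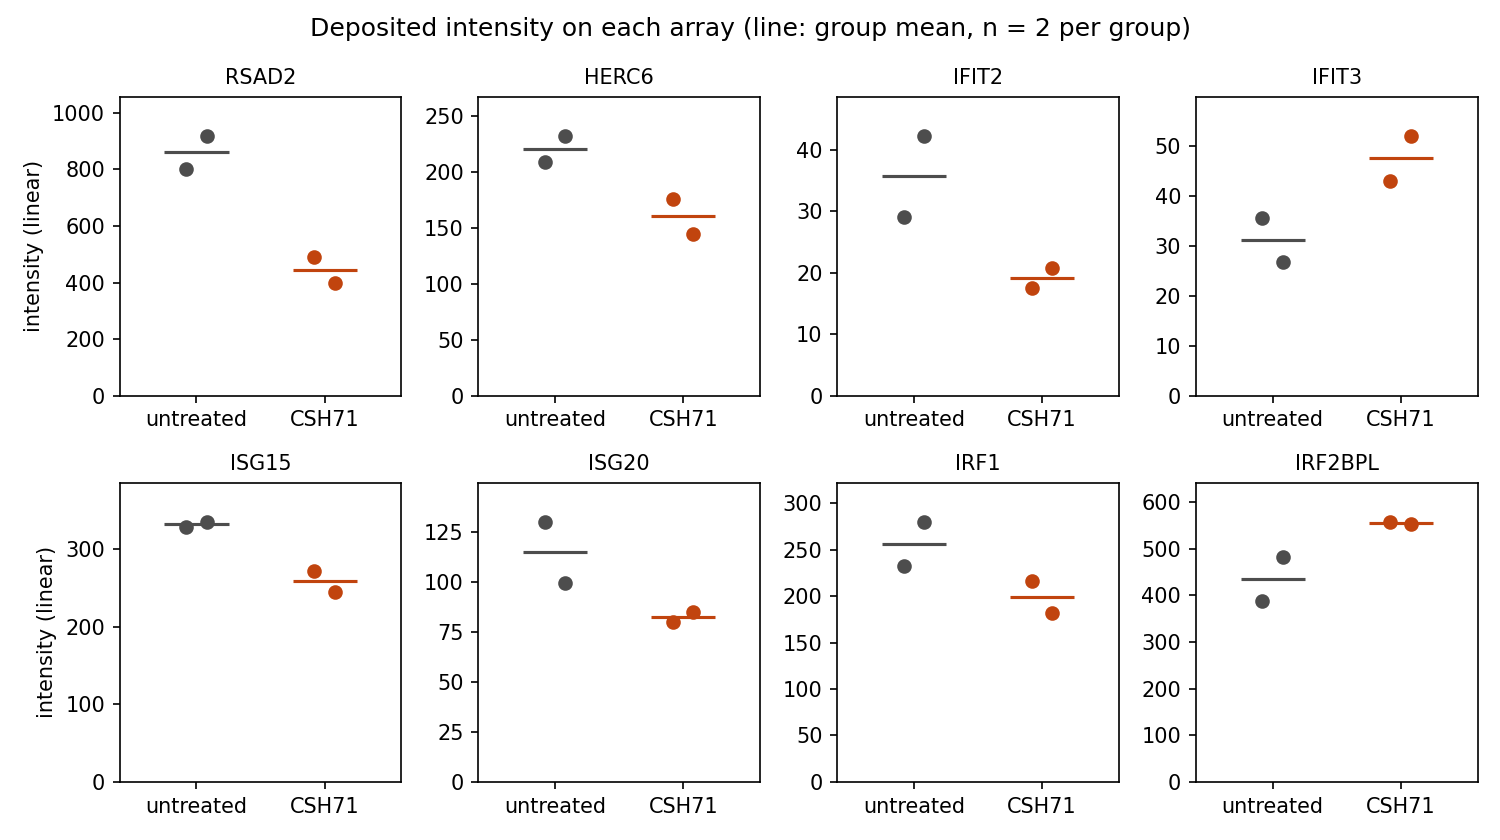
Deposited linear intensity (y axis, from 0, with a scale of its own for each gene) of 8 genes on the 2 untreated and 2 CSH71 arrays; in each group the left point is replicate 1 and the right point replicate 2, and the line is the group mean. In RSAD2, HERC6, IFIT2, ISG15, ISG20 and IRF1 both treated arrays lie below both untreated ones, and in IFIT3 and IRF2BPL both lie above.

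Of the 38 genes, 0 were called by limma in either direction, where 7 of all 14884 genes (0.047%) were called, 0.00672% lower and 0.0403% higher. At an unadjusted p under 0.05 there were 2 lower members, RSAD2 and IFIT2, and 0 higher ones, where 1.9% of all genes were lower and 3.2% higher at that level. A log2 fold change at or below -0.4 was found for 4 members (RSAD2, IFIT2, HERC6 and ISG20), or 10.5%, against 3.54% of all genes. A change at or above 0.4 was found for IFIT3 alone, or 2.63%, against 5.45% of all genes. The directions of RSAD2, IFIT2, HERC6 and IFIT3 were known when the list was made. The shares of members given here are therefore no independent evidence. Both treated arrays lay below both untreated arrays in 14 members, or 36.8%, against 16.6% of all genes, and above them in 5, or 13.2%, against 15.0%. The log2 fold change was negative for 26 of 38 members (68.4%; 52.0% of all genes), with a median of -0.11 against -0.01 for all genes. Because the arrays hold RNA of whole cultures, less RNA per cell and fewer cells with the RNA cannot be told apart.

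**Figure D2:**
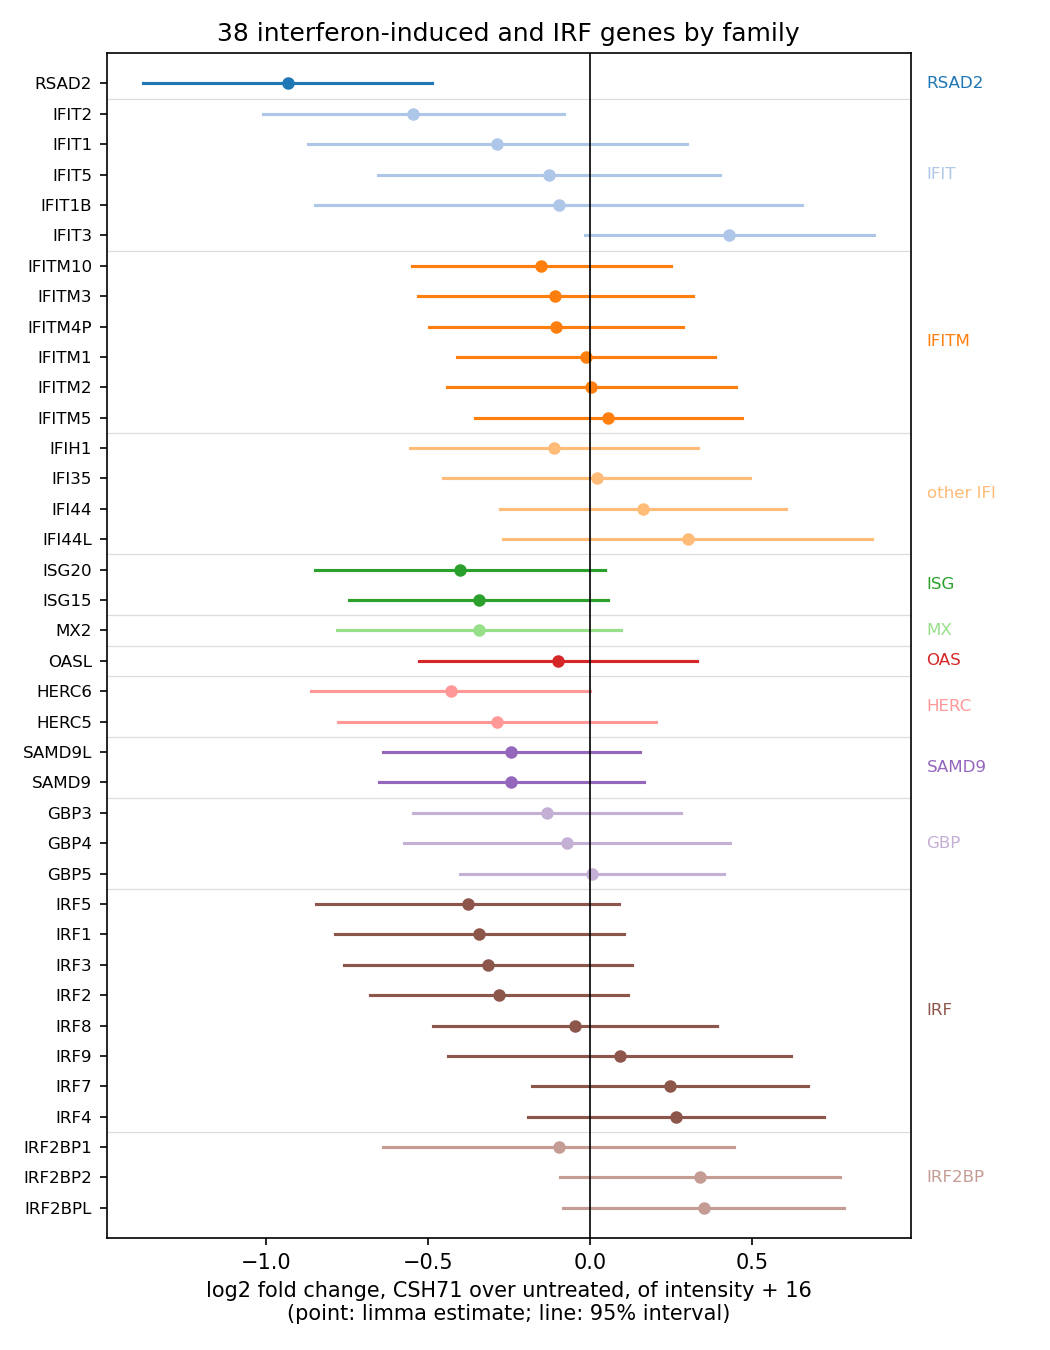
Log2 fold change of CSH71 over untreated (x axis) for each of the 38 genes (y axis), ordered by family; the point is the limma estimate and the line its 95% interval. The intervals of RSAD2 and IFIT2 lie wholly below 0, that of HERC6 ends at 0.00, and those of the other 35 genes include 0. For IFIT2 this depends on the variance prior.

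How far the members stood apart varied with the array. Relative to each gene's mean over the 4 arrays, the median of the 38 genes was -0.01 and 0.12 on untreated replicates 1 and 2 and -0.03 and -0.11 on CSH71 replicates 1 and 2. The same medians over all genes ran from -0.01 to 0.03. Thus untreated replicate 2 was high and CSH71 replicate 2 low, and the other arrays of each group lay between them. Between CSH71 replicate 1 and untreated replicate 1 the median difference of the members was -0.01, and between CSH71 replicate 2 and untreated replicate 2 it was -0.24. In 29 of the 38 genes untreated replicate 2 was above untreated replicate 1, and in 13 CSH71 replicate 2 was above CSH71 replicate 1. Over all 14884 genes these counts were 8541 and 6992, and over the 69 other pathway genes described below 59 and 20. For the 26 members at or above the median gene in intensity they were 24 and 5. For the 12 dimmer members they were 5 and 8. The median over members of the absolute difference within a group was 0.23 for untreated and 0.19 for CSH71 arrays, beside a median absolute fold change of 0.24. Over all genes these medians were 0.22, 0.19 and 0.14. The fold change compares means of 2 arrays and the other differences compare single arrays, so the sizes are not directly comparable. Without untreated replicate 2 the median fold change of the members was -0.03, and without CSH71 replicate 2 it was -0.06, while it was -0.17 without untreated replicate 1 and -0.19 without CSH71 replicate 1. With 3 arrays separation is easier to meet, so members and all genes were counted the same way. Members with the treated arrays below the untreated ones numbered 25 of 38 without untreated replicate 1 (65.8%; 38.5% of all genes) and 23 without CSH71 replicate 1 (60.5%; 33.8%). They numbered 16 without untreated replicate 2 (42.1%; 31.4%) and 19 without CSH71 replicate 2 (32.9% of all genes). Members above numbered 5, 7, 10 and 9 in the same order of omission, or 13.2%, 18.4%, 26.3% and 23.7%, where all genes gave 30.9%, 31.2%, 33.8% and 30.4%.

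**Figure D3:**
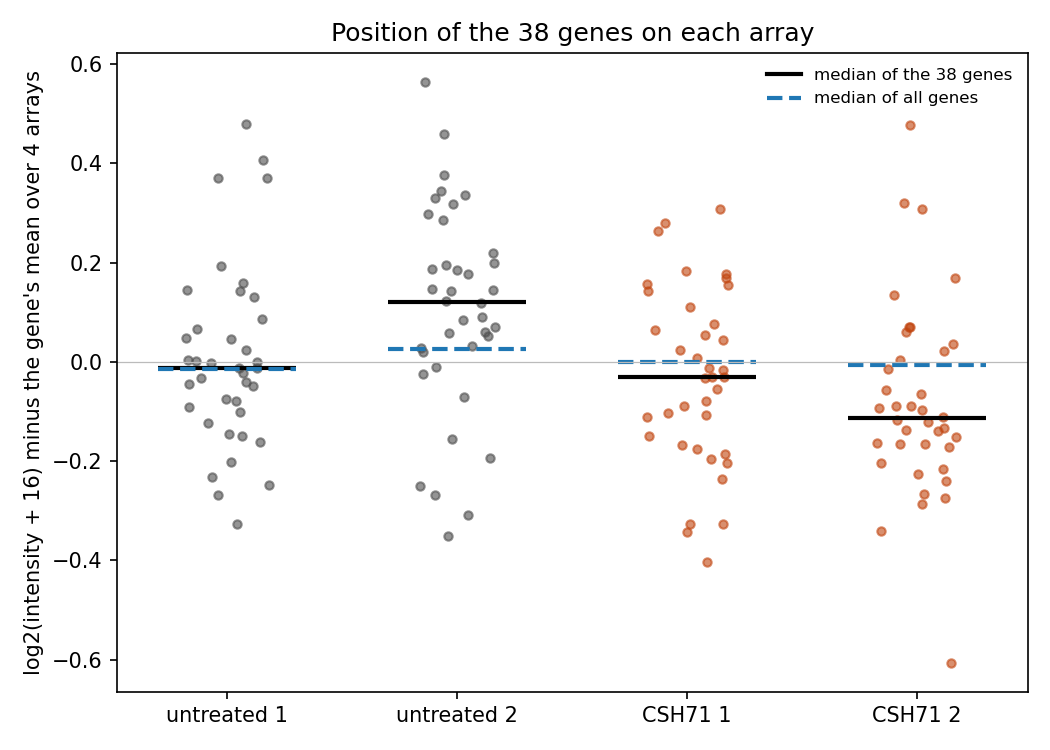
Each point is 1 of the 38 genes on 1 array, as log2(intensity + 16) minus that gene's mean over the 4 arrays (y axis); the solid line is the median of the 38 genes and the dashed line that of all genes. The members' median is 0.12 on untreated replicate 2 and -0.11 on CSH71 replicate 2, and within 0.03 of 0 on the other 2 arrays.

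Among the IFIT genes, IFIT2 and IFIT3 had opposite signs. IFIT2 was at 29.1 and 42.4 on the untreated arrays and 17.5 and 20.9 on the CSH71 arrays. Its log2 fold change was -0.55 ± 0.20 (limma adjusted p = 0.928), with a 95% interval of -1.01 to -0.08. With the variance prior that follows intensity the standard error of IFIT2 was 0.30. Whether its interval leaves out 0, and whether its unadjusted p is under 0.05, therefore depends on the prior. IFIT3, whose protein binds to and stabilises IFIT1, was at 35.6 and 26.7 untreated and 42.9 and 52.0 treated. In IFIT2 both treated arrays were low and in IFIT3 both were high, without overlap of the groups. For IFIT3 the log2 fold change was 0.43 ± 0.19, with an interval of -0.02 to 0.88 (limma adjusted p = 0.99). The difference between IFIT2 and IFIT3 was not tested. Both kept their sign in every alternative in which they were fitted, IFIT2 from -0.85 to -0.26 and IFIT3 from 0.23 to 0.60, though both were dimmer than the median gene and left out with the dimmest 40%. No background level is given for these arrays, so such low signals may hold little of the gene's RNA, and this part was not tested.

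The brightest IFIT gene, IFIT5, was at 156 and 233 untreated and 185 and 162 treated, so that the groups overlapped (-0.13 ± 0.22). IFIT1, the cap-binding member, had a log2 fold change of -0.29 ± 0.25, which turned to 0.05 without untreated replicate 1, and IFIT1B had -0.10 ± 0.32. The median of the 5 IFIT genes was -0.13, and 4 of the 5 were dimmer than the median gene. Without untreated replicate 1 that median was 0.05, and without untreated replicate 2 it was -0.36.

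IFITM proteins sit in membranes and block the fusion of viruses with the cell. IFITM1 was bright in both groups, with 5982 and 6377 untreated and 6344 and 5914 treated, and a log2 fold change of -0.01 ± 0.17 whose interval of -0.41 to 0.39 leaves out a 2-fold change of the measured signal. Its sign turned after quantile normalization (0.03) and after median centring (0.01). IFITM2 was at 0.00 ± 0.19 and IFITM3 at -0.11 ± 0.18, both with overlapping groups. These 3 genes are close paralogs, and how far their probe sets share signal was not tested. The pseudogene IFITM4P was at 1734 and 1749 untreated and 1658 and 1576 treated (-0.11 ± 0.17). It has 6 probe sets, of which 2 pairs hold identical values, and their log2 fold changes ran from -0.21 to -0.11. IFITM10 was at 197 and 182 untreated and 175 and 164 treated (-0.15 ± 0.17), and IFITM5 had 0.06 ± 0.17. In IFITM4P and IFITM10 both treated arrays were the lower ones, by less than limma's standard error, which also draws on the spread of all genes. Within the untreated and CSH71 groups the IFITM4P arrays differed by 0.01 and -0.07 (replicate 2 minus replicate 1). For IFITM10 these differences were -0.11 and -0.08. The median of the 6 IFITM genes was -0.06.

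Of the other IFI genes, IFIH1 encodes MDA5, a cytoplasmic sensor of long double-stranded RNA. It was at 346 and 418 untreated and 380.0 and 325 treated, a log2 fold change of -0.11 ± 0.19. IFI44, an antiviral protein, was at 169.9 and 213 untreated and 225 and 206 treated (0.16 ± 0.19), and the value was 0.011 without untreated replicate 1. Its neighbour in sequence, IFI44L, was at 18.2 and 17.9 untreated and 17.5 and 36.6 treated (0.30 ± 0.24), so its positive value came from CSH71 replicate 2, and it was -0.02 without that array. IFI35 had 0.02 ± 0.20. In all 4 genes the groups overlapped, and their median was 0.09.

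ISG15 and ISG20 both had lower treated arrays. ISG15 was at 328 and 335 untreated and 271 and 245 treated, and its log2 fold change was -0.34 ± 0.17 with an interval of -0.74 to 0.06 (limma adjusted p = 0.992). Its untreated arrays were close together, 0.03 apart on the log2 scale, and its treated arrays 0.14 apart. ISG20, an exonuclease that degrades RNA, was at 129.9 and 99.3 untreated and 79.7 and 84.6 treated, with -0.40 ± 0.19 (adjusted p = 0.99). In HERC5, the ligase for ISG15, the untreated arrays were at 141 and 189 and the treated arrays at 145 and 118, which overlapped (-0.29 ± 0.21), and the value was -0.094 without untreated replicate 2. HERC6, which belongs to the same family of ubiquitin ligases, was at 209 and 232 untreated and 175 and 145 treated without overlap. Its log2 fold change was -0.43 ± 0.18, with an interval of -0.86 to 0.00 (adjusted p = 0.978), and it ran from -0.56 to -0.30 over the alternatives.

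MX2, a dynamin-like GTPase that restricts retroviruses, was at 70.0 and 73.4 untreated and 46.1 and 61.1 treated (-0.34 ± 0.19). OASL, a catalytically inactive relative of the oligoadenylate synthetases, was at 178 and 199 untreated and 159.6 and 191 treated (-0.10 ± 0.18). In MX2 the groups were apart, in OASL they overlapped. The paralogs SAMD9 and SAMD9L, which inhibit translation in infected cells, had nearly the same fold change. SAMD9 was at 907 and 1040.4 untreated and 826 and 811 treated (-0.24 ± 0.17), and SAMD9L at 522 and 565 untreated and 447 and 465 treated (-0.24 ± 0.17). Both had their treated arrays below their untreated ones. Among the guanylate-binding proteins, GBP3 was at 215 and 241 untreated and 218 and 195 treated (-0.13 ± 0.17), GBP4 was at 408 and 513 untreated and 499 and 379 treated (-0.07 ± 0.21), and GBP5 had a log2 fold change of 0.01 ± 0.17. All 3 overlapped between the groups. GBP4 changed sign when untreated replicate 2 (0.09) or CSH71 replicate 2 (0.12) was left out.

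The 8 interferon regulatory factors split in sign. IRF1, which is itself induced by interferon gamma and switches on antigen presentation and antiviral genes, was at 233 and 280.2 untreated and 216 and 182 treated (-0.34 ± 0.19). IRF2, a competitor of IRF1 at its binding sites, was at 1495 and 1390.5 untreated and 1147 and 1221 treated (-0.28 ± 0.17). IRF5, which acts downstream of Toll-like receptors, was at 174 and 231 untreated and 159.7 and 142 treated (-0.38 ± 0.20). IRF3, which switches on interferon beta when nucleic acid sensors fire, had -0.31 ± 0.19. In these 4 genes both treated arrays were below both untreated arrays, as in 16.6% of all genes.

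In the other direction, IRF4, a factor of activated lymphocytes, had 0.27 ± 0.19, and IRF7, the amplifier of type I interferon production, had 0.25 ± 0.18. Both had treated arrays above untreated ones, as had 15.0% of all genes, and both were dimmer than the median gene. IRF8, known from myeloid and B cells, was at -0.05 ± 0.19, and IRF9, the DNA-binding part of the complex described above, was at 0.09 ± 0.22 with overlapping groups. The limma adjusted p of all 8 was 0.999. The median of the 8 IRFs was -0.16, and -0.30 when the dimmest 40% of genes were left out.

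Of the IRF2-binding proteins, IRF2BPL was at 387 and 481 untreated and 558 and 553 treated (0.35 ± 0.18), and IRF2BP2 at 248 and 287 untreated and 370.3 and 316 treated (0.34 ± 0.18). Their treated arrays were the higher ones, without overlap. The other probe set of IRF2BP2 gave -0.03, and the mean of both gave 0.15, so the value of this gene depends on the probe set. IRF2BP1 had -0.10 ± 0.23, with overlap. The median of the 3 genes was 0.34, 0.15 with the mean of each gene's probe sets, and 0.20 without untreated replicate 1.

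Members were also described by their promoter. The 15 genes with an interferon-stimulated response element in the window had a median log2 fold change of -0.13 and ran from -0.93 for RSAD2 to 0.43 for IFIT3, both of which are printed above. Of these 15, 4 had both treated arrays below both untreated ones and 1 had them above, where 16.6% and 15.0% of all genes did. The 13 genes without it had a median of -0.05 and ran from -0.43 to 0.35, with 4 lower and 3 higher. Since 8 of these 13 are IRF or IRF2BP genes, the like comparison is with the 5 genes outside those families that lack the element. Their median was -0.10, with 2 lower and 0 higher. The difference between these groups of genes was not tested.

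Other genes of the interferon pathway were taken from a list of 148 symbols in 9 roles, of which 69 genes were measured and belong to none of the families above. Of the 69, 0 passed limma's test in either direction, while 4 were higher and 2 lower at an unadjusted p under 0.05 (3.2% and 1.9% of all genes). Both treated arrays lay below both untreated ones in 18 of the 69 and above them in 10, against 16.6% and 15.0% of all genes. Their median log2 fold change was -0.08 against -0.01 for all genes, and 0.00 without untreated replicate 2. All 22 interferon genes of the list and the receptors IFNAR1 and IFNAR2 were not analysed here, so neither the ligands nor the type I receptor have a value.

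At the top of the pathway, the chains of the interferon gamma receptor had opposite signs. IFNGR1, the ligand-binding chain, was at 509 and 599.6 untreated and 782 and 756 treated (0.47 ± 0.18, limma adjusted p = 0.93), without overlap. IFNGR2, the signalling chain, was at 325 and 395 untreated and 337 and 242 treated (-0.31 ± 0.22), with overlap. Its value was -0.085 without CSH71 replicate 2 and -0.54 without CSH71 replicate 1. Of the kinases, JAK1 was at -0.01 ± 0.17 (0.01 after median centring), TYK2 at 0.12 ± 0.19 and JAK2 at 0.15 ± 0.18. STAT4, which carries interleukin 12 and type I interferon signals in T cells, was at 175 and 199.7 untreated and 464 and 367 treated, the farthest from 0 of the 69. Its log2 fold change was 1.08 ± 0.19 (adjusted p = 0.517), with 4 of 14 alternatives past the threshold, adjusted p from 8.78e-05 to 1 over all of them.

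**Figure D4:**
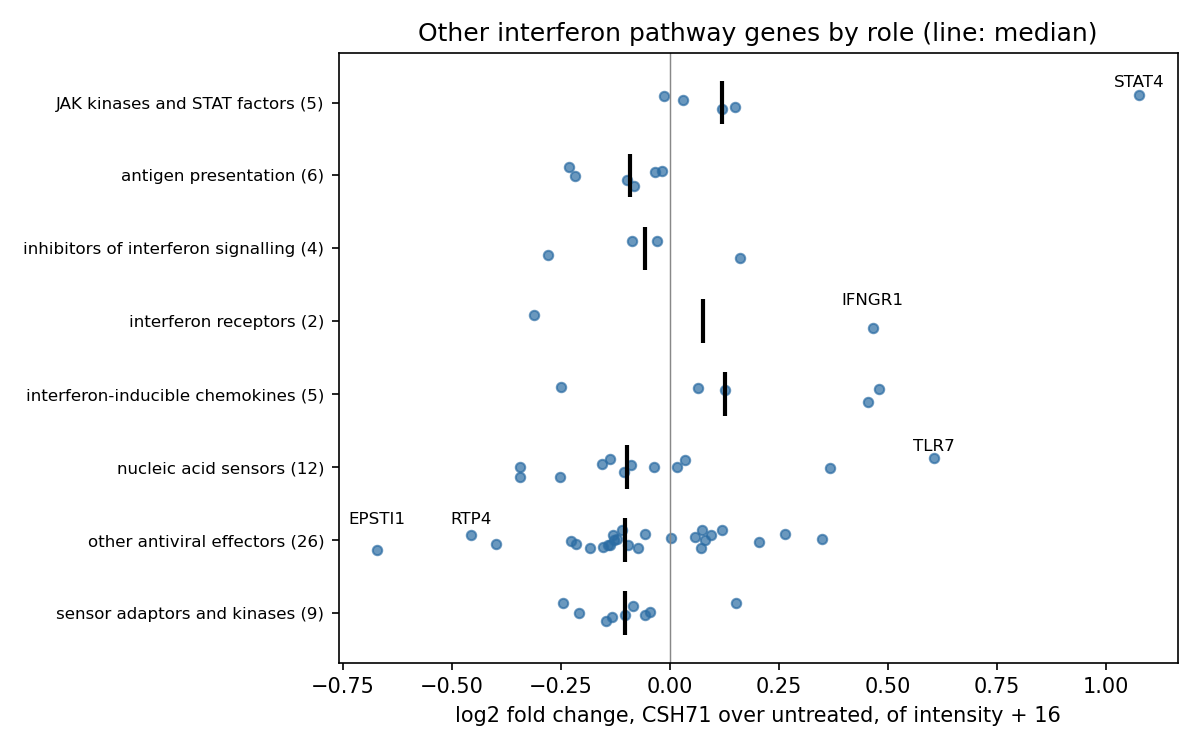
Log2 fold change of CSH71 over untreated (x axis) of the other interferon pathway genes, 1 point per gene, by role (y axis, number of genes in brackets); the black line is the median of the role. STAT4 lies at 1.08 and IFNGR1 at 0.47, while EPSTI1 lies at -0.67 and RTP4 at -0.46.

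Among the inhibitors of interferon signalling, CISH had -0.28 ± 0.19 and SOCS3 0.16 ± 0.23, and the median of the 4 measured was -0.06. The 12 nucleic acid sensors had a median of -0.10, with a range from -0.17 when CSH71 replicate 1 was left out to -0.0057 when CSH71 replicate 2 was. Among them were TLR7, an endosomal sensor of single-stranded RNA, at 0.61 ± 0.20 from intensities of 24.4 and 16.9 to 46.3 and 33.5, and DHX58, a relative of RIG-I, at -0.34 ± 0.17. Adaptors and kinases below the sensors had a median of -0.10 over 9 genes, with TRIM25 at -0.21 ± 0.17 and STING1 at -0.24 ± 0.21, which was -0.055 without untreated replicate 2. The 26 other antiviral effectors had a median of -0.10, with 8 lower and 3 higher without overlap of the groups (16.6% and 15.0% of all genes). EPSTI1 was at 118 and 173 untreated and 88.3 and 79.6 treated (-0.67 ± 0.22), and RTP4, a chaperone of receptors, at 282 and 298 untreated and 229.9 and 186 treated (-0.46 ± 0.18). Both are known as interferon-induced genes, and both had limma adjusted p-values far from the threshold (0.928 and 0.958).

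The 5 interferon-inducible chemokines were all dimmer than the median gene and had a median of 0.13, which was 0.011 without untreated replicate 2. CCL8 had 0.48 ± 0.17 and CXCL11 0.45 ± 0.23, with treated arrays above untreated ones, while CXCL10 had -0.25 ± 0.22 with overlap. Of 31 listed genes of antigen presentation 6 were measured, with no HLA, TAP1 or TAP2 gene among them. All 6 had a negative value, where 52.0% of all genes did, and the values ran from -0.23 to -0.02. The median of the 6 genes was -0.09, and it was -0.012 without untreated replicate 2 and -0.20 without untreated replicate 1. B2M, the invariant chain of class I molecules, was at 2032 and 2248 untreated and 1906 and 1735 treated (-0.23 ± 0.17), and ERAP2, a peptide-trimming enzyme, had -0.22 ± 0.17. Without untreated replicate 2 the medians of the effectors and of the sensor adaptors moved towards 0 (-0.0074 and -0.019).

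The summed intensity of the 10 measured of 17 T-cell markers was 8030 and 8208 untreated and 8355 and 7810 treated. Among them CD5, LCK, ZAP70, LAT and CD4 were brighter than the median gene. CD2 and CD28 were dimmer, at the 32.7 and 34.4 percentiles of mean intensity. The listed CD3 and T-cell receptor constant genes had no named probe set. CD247, the zeta chain of the T-cell receptor complex, was at 1415 and 1144 untreated and 1020.4 and 1044 treated (-0.30 ± 0.18), with both treated arrays lower, and CD5 had 0.21 ± 0.17 with both higher. The part of these markers in the results was not tested. Markers of cells that make much interferon or respond strongly to it overlapped between the groups in their summed intensity: the sum over 10 monocyte markers was 989 and 737 untreated and 771 and 914 treated, and that over 4 plasmacytoid dendritic cell markers, which include IRF7, was 742 and 552 untreated and 604 and 649 treated. The sums ran from 858 to 1011 untreated and 781 to 890.2 treated over 6 B-cell markers, from 701 to 732 and 736 to 792 over 3 natural killer cell markers, and from 2736 to 2877 and 2623 to 2980.0 over 6 fibroblast and epithelial markers. The natural killer cell sum was higher on both treated arrays through GNLY (0.23 ± 0.17), while NCAM1 was lower on both (-0.43 ± 0.20), NCR1 was at -0.01 ± 0.26 and the list's median was -0.01. Its part in the results was not tested. None of the measured markers was at 0 on any array or called by limma.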

How the data were processed

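The authors deposited linear intensities, 1 per probe set, for 4 arrays; Affymetrix Expression Console made them, per the submitters' processing notes. For its version, summarisation, background correction and normalization the sources used here give nothing. Groups and replicate numbers were read from the titles. The intensities run from 0 to 19331, with array medians from 71.5 to 81.1. Of 53617 probe sets 16098 had 1 gene symbol, and the probe set with the highest mean intensity stood for each of 14884 genes. The 38 members had 44 probe sets. Values were transformed to log2(intensity + 16) without further normalization, fitted with limma (version 3.58.1, R 4.3.3) as 2 group means per gene, and p-values adjusted by the Benjamini-Hochberg method over all 14884 genes. Standard errors and 95% intervals are limma's. They join a gene's own spread with a variance prior from all genes, which had 4.92 degrees of freedom in the reported fit. An exact permutation test of 2 against 2 arrays cannot go below a 2-sided p of 0.333, so none is given. The number of arrays limits the precision, and no detection call or background level is given.

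Members, lists and the naming rule were chosen with earlier results of these data known, among them the direction of RSAD2, IFIT2, IFIT3 and HERC6, so that direction is no independent evidence. Given on every array were those 4 genes, every member with an absolute log2 fold change of at least 0.4, and in each family the 2 of smallest p and the brightest; the pathway genes named were the 2 of smallest p in each role plus fixed receptor and kinase genes, with IRF and other members otherwise given by fold change. Same-numbered arrays deviated from their group means in opposite directions (correlation over genes -0.294), so the numbers were not taken to pair the samples. The alternatives were a replicate block, quantile normalization, median centring, pseudocounts of 1 and 64, removal of the dimmest 40% of genes, 2 other variance priors, averaging probe sets within genes, testing every probe set, and omitting single arrays. Promoter windows came from RefSeq, and figures were drawn with matplotlib 3.10.9.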

Additional observations from a re-analysis of the deposited data

How the results depend on the processing

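With 2 arrays a group, counts of calls moved widely. Limma called 7 of all genes as reported, 27 with the replicate block, 27 after median centring, 33 with a pseudocount of 64, 11 without the dimmest genes, 143 with a prior that follows intensity, and 0 after quantile normalization, with a pseudocount of 1 or over all probe sets (964, 768 and 538 genes at an unadjusted p under 0.05); leaving out 1 array gave 0 to 29. Among the members the replicate block called 0, as reported (2 at an unadjusted p under 0.05), and a pseudocount of 64 and the intensity prior each called 1, RSAD2. Crossing the replicate numbers, tried after seeing that same-numbered arrays deviated in opposite directions, gave 0 calls over all genes and 0 among the members (1288 and 6 at an unadjusted p under 0.05). Among pathway genes 1, STAT4, was called with the replicate block (adjusted p = 0.0437), median centring (0.0194), a pseudocount of 64 (0.0175) or the intensity prior (8.78e-05). The prior degrees of freedom were infinite with the replicate block as well as with the intensity prior. Calls in those 2 settings therefore do not draw on a gene's own spread.

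Members with both treated arrays above both untreated ones numbered 5, and 2 without the dimmest genes; leaving out 1 array gave 5 to 10 above and 16 to 25 below, where all genes gave 30.4% to 33.8% above and 31.4% to 38.5% below. The members' median ran from -0.19 to -0.034 and that of the pathway genes from -0.14 to 0.0004 when 1 array was left out. In the same settings family medians ran from -0.21 to 0.089 (GBP), -0.36 to 0.051 (IFIT), -0.15 to -0.0039 (IFITM), -0.20 to -0.038 (IRF), 0.20 to 0.44 (IRF2BP), -0.45 to -0.30 (ISG) and -0.060 to 0.23 (other IFI). The ISG median was -0.29 with a pseudocount of 64, the IRF median -0.30 without the dimmest genes and the IRF2BP median 0.15 with the mean of probe sets.

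Of the 38 members, 22 kept their sign in every alternative in which they were fitted and 16 did not, all with absolute changes of at most 0.30. Of the 22, 15 were smaller by over 1.5 times without 1 array, and 7 (RSAD2, HERC6, IFIT3, ISG15, IRF2, IRF2BP2 and SAMD9L) were not. IFITM1 turned to 0.030 after quantile normalization and 0.0084 after median centring, and JAK1 to 0.006 after median centring. The other turns came from leaving out 1 array, where log2 fold changes ran from -0.26 to 0.12 (GBP4), -0.081 to 0.094 (GBP5), -0.13 to 0.17 (IFI35), -0.025 to 0.63 (IFI44L), -0.24 to 0.020 (IFIH1), -0.62 to 0.051 (IFIT1), -0.45 to 0.26 (IFIT1B), -0.39 to 0.14 (IFIT5), -0.062 to 0.039 (IFITM1), -0.16 to 0.17 (IFITM2), -0.22 to 0.011 (IFITM3), -0.050 to 0.16 (IFITM5), -0.39 to 0.20 (IRF2BP1), -0.17 to 0.079 (IRF8), -0.17 to 0.35 (IRF9), -0.22 to 0.020 (OASL), -0.068 to 0.039 (JAK1), -0.14 to 0.47 (SOCS3) and -0.070 to 0.31 (TYK2). The cause was not tested.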
